A study of Mus musculus with 74 samples.

Results

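CF and FF mice carry the same mtDNA, that of FVB/NJ (F), and differ in the nuclear genome, which comes from C57BL/6J (C) in CF and from FVB/NJ in FF. All lung small RNA libraries whose genotype label is CF or FF were taken, which gave 24 of the 74 libraries of the series, 12 of each genotype. The remaining libraries belong to the genotypes CC, CH, HC and HH and serve here only as context. The comparison addresses how fragments of the mitochondrial tRNA for arginine (mt-TR) differ when the mtDNA is held constant and the nuclear genome is exchanged. FF is a wild-type strain bought from commercial vendors, and CF is a mitochondrial-nuclear exchange (MNX) strain, made by pronuclear transfer between fertilized oocytes and bred in-house. A strain name puts the donor of the nucleus before the donor of the mtDNA. All mice were healthy adults, and the RNA of both genotypes was sequenced without enzymatic pretreatment.

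Each genotype had 5 libraries from females and 4 from males in batch 2, and 1 from a female and 2 from males in batch 3, as the batch label has it. Nuclear genome and colony of origin change together between CF and FF and cannot be told apart. The extraction protocol states that RNA samples were pooled, so a library may hold 1 animal or several, and the p-values below measure only the spread between these libraries. The labels name lung as the tissue, whereas the design text of the series names liver, and lung markers could not be checked because the counts cover mt-TR alone. For the same reason the total depth of each library is unknown, and a count below is the number of reads of a library that matched mt-TR. No pair of libraries had identical counts.

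Mitochondrial tRNAs are cut out of long polycistronic transcripts at both ends, and an enzyme encoded in the nucleus then adds the bases CCA to their 3′ end, where the amino acid is later attached. The nucleases and the modifying enzymes that act on them are also products of nuclear genes, although the tRNA itself is encoded by mtDNA. Cleavage of a tRNA yields tRNA-derived fragments (tRF), which are classed by the part of the molecule they retain. Fragments that keep the 3′ end may carry the full CCA or have lost part of it, and internal fragments (i-tRF) lack both ends.

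The gene is annotated as mt-Tr (ENSMUSG00000064361.1, type Mt_tRNA) at chrM:9808-9875 of GRCm38 on the + strand, downstream of mt-Nd3, which ends at 9806, and upstream of mt-Nd4l, which starts at 9877. Both neighbours encode subunits of respiratory complex I. The mature molecule is shown for both mtDNA types because every position below is counted on the F form, from 1 at its 5′ end. Sequences run 5′ to 3′ in DNA letters as deposited. The F form was laid together from overlapping sequences that the study lists for FF and CF, and the C form is the GRCm38 sequence with CCA added. Capitals mark the run of A in the D-arm region, which has 9 A at positions 14 to 22 in the F form of 72 nt and 8 A in the C form of 71 nt.
F mt-TR: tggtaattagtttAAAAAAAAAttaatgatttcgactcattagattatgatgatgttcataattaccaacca
C mt-TR: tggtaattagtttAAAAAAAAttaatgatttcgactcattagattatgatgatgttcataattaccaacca

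In F numbering the anticodon arm takes positions 25 to 41, with the anticodon TCG at 32 to 34. The T-arm takes positions 46 to 61, the 3′ strand of the acceptor stem 62 to 68, the discriminator base 69 and CCA 70 to 72. A whole F-type run of 9 A was read in 3 sequences with 4 reads, all of them from CF males (3 reads in replicate 2 and 1 in replicate 6). In FF it was read in 0 of 177 reads, where a floor of 3 reads would be 1.69%. The other 223 of the 226 sequences would match C mtDNA as well.

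The CF libraries held more mt-TR reads than the FF libraries. In total 684 reads were counted in CF and 177 in FF. CF libraries held 23 reads at the lowest, 59 at the median and 90 at the highest, and FF libraries held 0, 12.5 and 37. The ranges overlapped between 23 and 37 reads, with 9 FF libraries below the lowest CF library and 9 CF libraries above the highest FF library. On the log2(reads + 1) scale the mean was 5.76 ± 0.60 in CF and 3.47 ± 1.48 in FF (SD, n = 12 each). The difference, weighted over strata of sex and batch, was 2.28 on this scale (95% interval 1.34 to 3.26), or 4.87-fold, and exceeded the spread between libraries (two-sided exact permutation test within sex and batch, p = 5.67e-05, Benjamini-Hochberg adjusted p = 0.000368 over 13 measures). Fewer cells of a type, less mt-TR RNA per cell and a lower total depth cannot be told apart with these counts.

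In batch 2 the CF females held 48, 30, 56, 90 and 67 reads and the FF females 2, 0, 12, 13 and 18, so these groups did not overlap. The CF males of batch 2 held 64, 62, 54 and 23 reads and the FF males 33, 6, 8 and 24, with 1 CF library inside the FF range. In batch 3 the female libraries held 84 reads in CF and 14 in FF, and the male libraries 73 and 33 in CF against 10 and 37 in FF. CF was higher on average in each of these strata, by 3.13 and 2.50 in females of batches 2 and 3 and by 1.66 and 1.29 in males on the log2(reads + 1) scale. The contrast in females exceeded that in males by 1.41 on this scale, and this did not pass the test (two-sided exact permutation test, p = 0.139). Among males alone, the difference of 1.54 had p = 0.0286 (exact permutation test) and an adjusted p of 0.124. Batch 3 alone gave a difference of 1.70 with an exact p of 0.333, and its 6 libraries allow no p below 0.167. Without the 2 FF females that held fewer than 3 reads, the difference was 1.75 (exact p = 0.000191), an alternative chosen after the data had been seen.

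**Figure D1:**
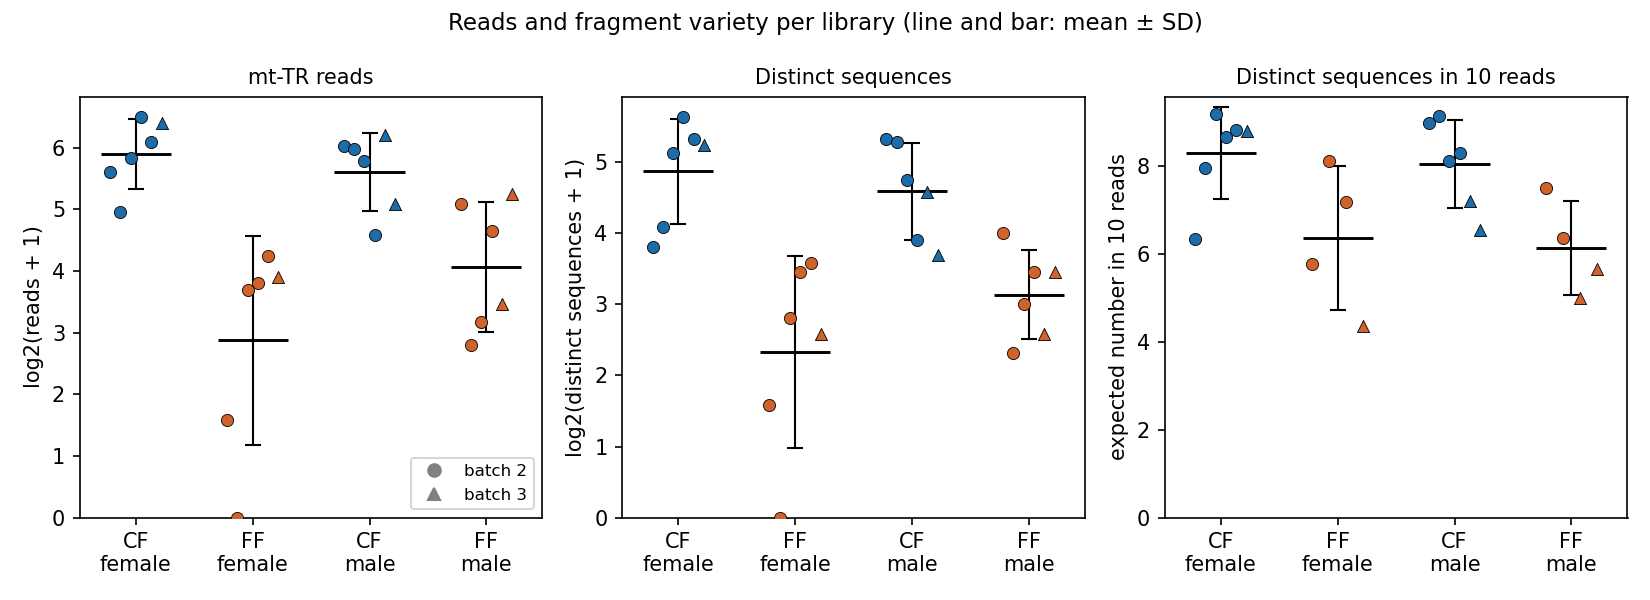
Each point is a library, grouped by genotype and sex; the axes show log2(reads + 1), log2(distinct sequences + 1) and the expected number of distinct sequences in 10 reads, and lines with bars are the mean ± SD. CF lies above FF on average in each panel and sex, and the lowest FF female library has 0 reads.

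Library names moved with genotype in part of the design. The names of all 5 CF females of batch 2 begin with RSB527 (30 to 90 reads), and those of all 5 FF females with RSB528 (0 to 18 reads). What the prefix stands for is not given in the sources used here, so prefix and genotype cannot be told apart among these females. Libraries of the other genotypes had a median of 79 reads under RSB528 (n = 10) and 47 under RSB527 (n = 13), and their ranges overlapped. Those under RSB528 were HC and CH males and HH females, and those under RSB527 were HC, CC and HH females. Sex and genotype thus differed between these sets, so their medians cannot show whether the prefix goes with fewer reads, which was not tested. Males of batch 2 that share the prefix RSB526 held 23 to 62 reads in CF (n = 3) and 6 to 33 in FF (n = 4). Their difference was 1.52 on the log2(reads + 1) scale with an exact permutation p of 0.171, where the smallest p this design allows is 0.0286. Across the series the median number of reads was 40 in CC, 42 in CH, 105 in HC and 19 in HH, against 59 in CF and 12.5 in FF.

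More kinds of mt-TR fragment were read in CF, also at equal numbers of reads. A CF library held 12 to 49 distinct sequences (median 30) and an FF library 0 to 15 (median 6.5). The difference was 2.00 on the log2(distinct sequences + 1) scale (95% interval 1.21 to 2.79, exact permutation p = 1.89e-05, adjusted p = 0.000246). Since distinct sequences increase with reads, the expected number of distinct sequences in 10 reads drawn from each library was compared for the libraries with at least 10 reads. It was 8.17 ± 0.98 in CF (SD, n = 12) and 6.24 ± 1.29 in FF (SD, n = 8), with ranges of 6.34 to 9.19 and 4.36 to 8.11 that overlapped. The stratified difference was 1.75 sequences (95% interval 0.71 to 2.69, exact permutation p = 0.00308, adjusted p = 0.0133). Within batch 2 it was 1.39 (exact p = 0.0286), with an adjusted p of 0.124. The most frequent sequence of a library took 7.14% to 24.2% of its reads in CF (median 13.9%) and 15.2% to 42.9% in FF (median 25%, 8 libraries).

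Over all libraries, 226 distinct sequences were read, 192 in CF and 73 in FF, with 39 of the 226 read in both. The shared sequences were 20.3% of the CF sequences and 53.4% of the FF sequences, and they held 35.5% of CF reads and 59.9% of FF reads. Most sequences were not recurrent: 112 of the CF sequences came from a single CF library and 63 of the FF sequences from a single FF library. In CF, 37 sequences were found in 3 or more libraries and the most widespread in 7. In FF, 2 sequences reached 3 libraries and none more. Overlap and recurrence both depend on the number of reads, 684 in CF and 177 in FF. These counts were not set to equal reads and cannot show that FF fragments recur less.

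Fragment length was not distinguished between the genotypes. Fragments measured 16 to 42 nt. The mean length per library was 23.9 ± 1.04 nt in CF (n = 12) and 24.4 ± 1.93 nt in FF (n = 8), a stratified difference of -0.46 nt (95% interval -1.83 to 0.84, exact permutation adjusted p = 0.630). Reads of 30 nt or longer made up 11.9% ± 4.35 in CF and 13.2% ± 16.3 in FF, with a difference of -1.11 percentage points (-13 to 7.99, exact permutation adjusted p = 0.916). CF libraries ranged from 5.56% to 20.4% and FF libraries from 0 to 50%, the latter in a library of 10 reads. In CF the most frequent lengths were 21 nt (71 reads) and 20 nt (67 reads). In FF they were 27 nt, with 12.4% of pooled reads, and 22 nt, with 11.9%. FF male replicate 6 gave 8 of the 22 FF reads of 27 nt, and without it, as without FF female replicate 3 or male replicate 1, 22 nt came first. Of the 24 lengths, 0 passed an adjusted p of 0.05 in the quasi-likelihood test of edgeR, which called 0% of them, and 0 had an unadjusted p under 0.05. DESeq2 called 2 lengths, 24 and 25 nt, both higher in CF.

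**Figure D2:**
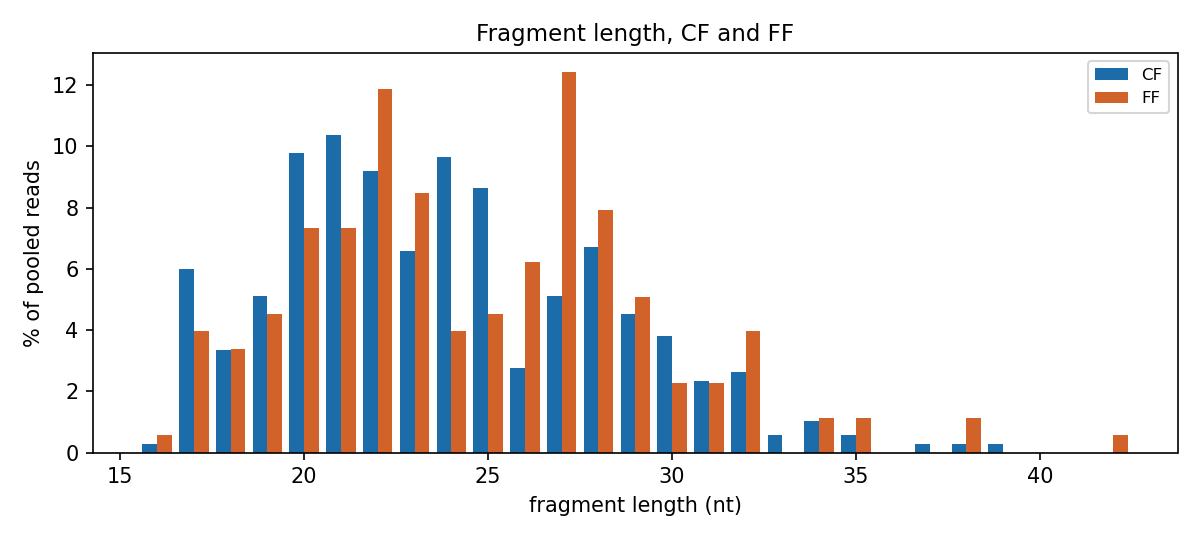
Share of pooled reads (%) by fragment length (nt) in CF (684 reads) and FF (177 reads). Both genotypes fill the range from 17 to 32 nt, and CF bars are highest at 20 and 21 nt while FF bars are highest at 22 and 27 nt.

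Start sites lay in the same stretch of the molecule in both genotypes, from the D-arm region to the T-arm. The first start was position 12 and the last 55, and no fragment read here kept the 5′ end. Positions 1 to 11 began 0 of 684 CF reads and 0 of 177 FF reads, where a floor of 3 reads would be 0.439% and 1.69%. In pretreated liver RNA the study ranks FF and CF fragments that begin at position 1 first among its candidates. It also states that base modifications can impede reverse transcription. Whether that limited the recovery of 5′ ends in these untreated libraries was not tested. The first base of the anticodon arm, position 25, was the most frequent start in CF, with 121 reads in all 12 libraries (17.7%, 95% Wilson interval 15.0% to 20.7%). In FF it held 15 reads in 5 libraries (8.47%, 5.20% to 13.5%). Wilson intervals here cover counting error only. Position 20, inside the run of A, held 17 FF reads (9.60%) and 28 CF reads (4.09%). FF female replicate 6 and FF male replicate 6 gave 6 of the FF reads each, and the FF share was 6.75% and 7.86% without the one or the other. Position 20 had the most FF reads over all libraries, but without FF female replicate 6 position 44 had, and without FF male replicate 5 or 6 position 25. Per library, starts at 25 took 3.03% to 38.9% in CF (median 11.5%) and 0 to 28.6% in FF (median 5.20%). These ranges overlapped, and the stratified difference of 7.66 percentage points (-4.65 to 21.1) did not exceed the variation among libraries (exact permutation adjusted p = 0.404).

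Starts at positions 26 to 32, up to the first anticodon base, took 28.0% ± 14.1 of reads in CF and 16.7% ± 18.1 in FF. The difference of 9.99 percentage points (-5.77 to 25.5) had an adjusted p of 0.404 in the exact permutation test. Starts before position 25 took 22.9% ± 9.41 and 29.1% ± 14.3, a difference of -5.58 percentage points (-15.7 to 4.96, exact permutation adjusted p = 0.433). The mean start was 31.4 ± 2.61 in CF and 32.5 ± 4.97 in FF (exact permutation adjusted p = 0.637, interval of the difference -4.87 to 2.55 nt). Of 42 start positions, edgeR called 0 (0%) at an adjusted p of 0.05, with 3 at an unadjusted p under 0.05. DESeq2 called 3, at positions 25, 32 and 38, all higher in CF. The 9 CF reads that began at 38 came from 1 library, CF female replicate 6.

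**Figure D3:**
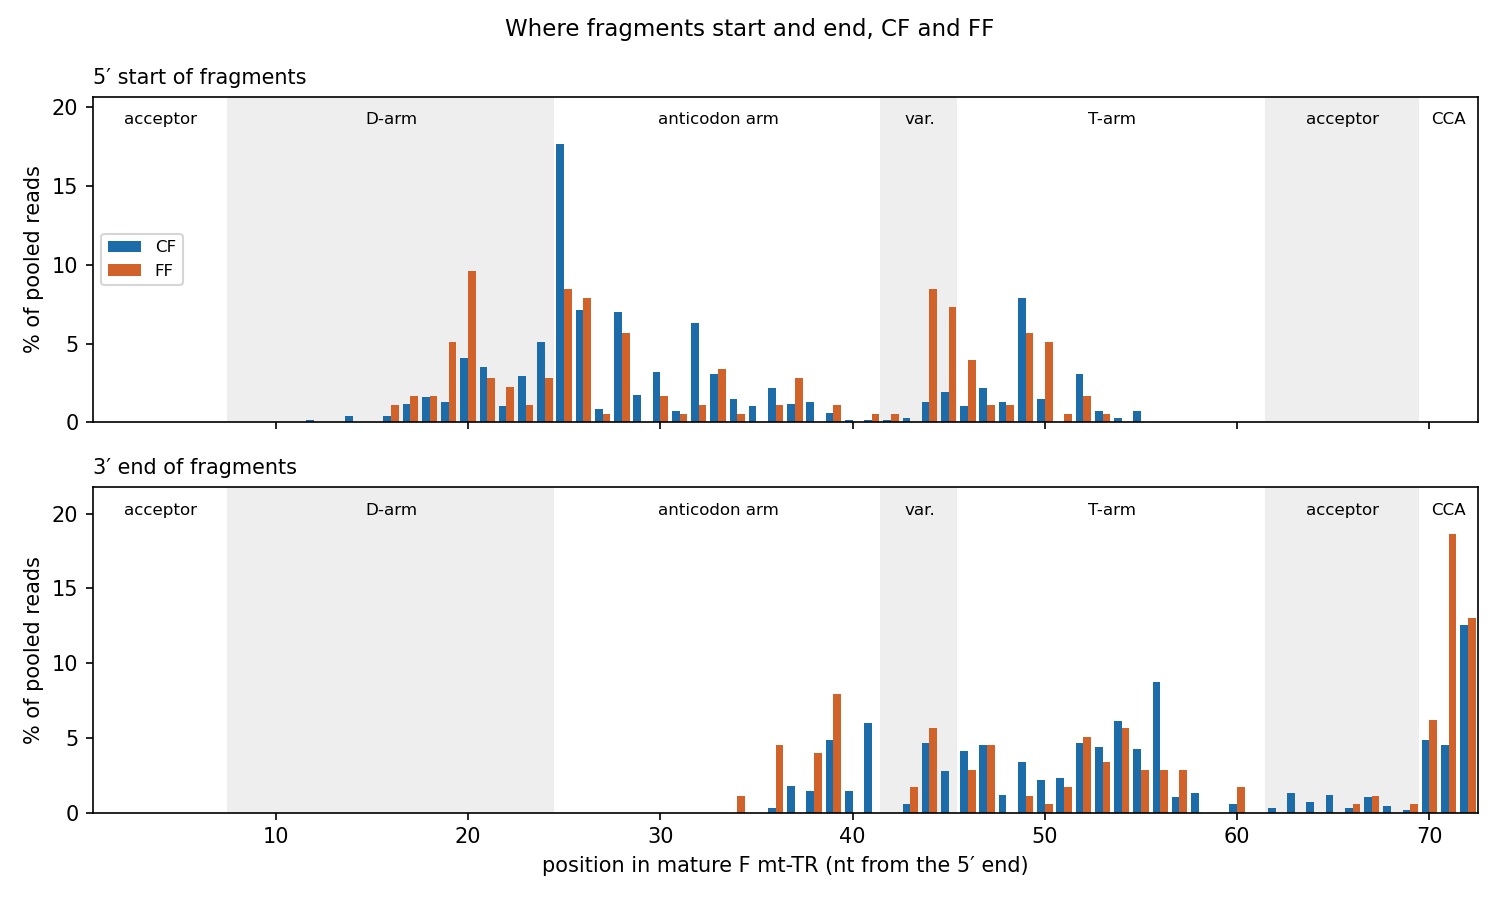
Share of pooled reads (%) by the position of the 5′ start (upper panel) and of the 3′ end (lower panel) on mature F mt-TR, for CF (684 reads) and FF (177 reads), with the arms of the tRNA shaded. CF has its highest start bar at 25, FF its highest end bar at 71, and FF has no bar at end 41.

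Fragments that contain the whole anticodon made up 66.5% of pooled CF reads and 54.2% of pooled FF reads. Reads that began in the anticodon arm, at positions 25 to 41, made up 55.8% in CF (52.1% to 59.5%) and 35.6% in FF (28.9% to 42.9%). These pooled shares weight libraries by their reads and were not tested. The targets of the northern blot probes of the study show which of these fragments such a probe could cover in full. The whole target of probe R3, positions 19 to 37, lay in 4.82% of CF reads and 7.34% of FF reads. FF male replicate 1 gave 9 of these 13 FF reads, and without it the FF share was 2.78%, below that of CF. The target of R4, positions 30 to 49, lay in 26% and 20.3%, and the target of R5, positions 54 to 72, in 12.3% and 13.0%. In its blots the study saw no fragments with R5. It also states that this sequencing failed to detect fragments of the size of the blot bands, so these shares do not describe those bands.

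Among end positions, 41 and 71 had the lowest p-values, and neither passed the threshold over all ends. Of 35 end positions, edgeR called 0 (0%) at an adjusted p of 0.05, and 8 had an unadjusted p under 0.05. Ends at position 41, the last base of the anticodon arm, were read 41 times in 8 CF libraries and in 0 of 177 FF reads, a share at least 3.54-fold higher in CF when 3 reads over all FF libraries are taken as the floor (edgeR adjusted p = 0.0562). Position 41 falls outside the rule by which positions were named and was chosen after its values had been seen. CF female replicate 4 gave 16 of the 41 reads and CF male replicate 5 gave 11. Restricting the test to ends with at least 10 reads over the 24 libraries called 41 and 71, each with an adjusted p of 0.0358. Scaling by TMM called 10 ends, all higher in CF and 71 not among them, and DESeq2 called 4, all higher in CF. The ends DESeq2 called were 41, 56, 58 and 72. End 58 had 9 CF reads, all from 1 library, CF female replicate 6. End 56 had 60 reads in 12 CF libraries (8.77%) and 5 reads in 3 FF libraries (2.82%). Its adjusted p was 0.000689 in DESeq2 and 0.0105 in edgeR with TMM, and it was not called in the test as reported. Ends at position 53 were 30 of 684 CF reads (4.39%) and 6 of 177 FF reads (3.39%). CF female replicate 1 gave 11 of these CF reads and FF female replicate 6 gave 4 of these FF reads. The mean end per library was 54.3 ± 2.87 in CF and 55.8 ± 5.10 in FF (interval of the difference -5.35 to 2.05 nt, exact permutation adjusted p = 0.543).

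The 3′ end of the tRNA, meaning an end at the discriminator base or within CCA, closed 151 of 684 CF reads and 68 of 177 FF reads. Per library this share was 10% to 45.5% in CF (median 19.4%) and 7.14% to 67.6% in FF (median 37.9%), and the ranges overlapped. The means were 22.1% ± 11.7 (n = 12) and 36.2% ± 21.6 (n = 8), and the stratified difference of -13.8 percentage points (95% interval -29.3 to 0.79) had an exact permutation p of 0.0628 and an adjusted p of 0.204. It was -21.3 and 5.95 percentage points in females of batches 2 and 3, and -10.1 and -14.4 in males. When each distinct sequence was counted once in place of its reads, the share was 18.4% ± 7.34 in CF and 35.6% ± 17.0 in FF, a difference of -16.9 percentage points (exact permutation p = 0.00437, adjusted p = 0.0142). This share was not set to equal numbers of reads, which were 23 to 90 in CF libraries and at most 37 in FF libraries. Whether it depends on the number of reads was not tested.

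The share of reads with intact CCA did not separate the genotypes, and ends at CC held a larger share of the pooled reads in FF without passing the test over all ends. Ends at position 72, with all of CCA, took 13.0% ± 7.44 of reads per library in CF and 12.2% ± 14.3 in FF. The stratified difference was 0.91 percentage points (95% interval -10.2 to 10.9, exact permutation adjusted p = 0.916). Ends at 71, which lack the last A, were 31 of 684 CF reads in 8 libraries and 33 of 177 FF reads in 7 libraries. Per library with at least 10 reads they took 0 to 14.3% in CF (median 1.80%) and 0 to 41.7% in FF (median 18.2%). The ranges overlapped, with FF female replicates 4 and 6 at 0. The edgeR log2 fold change of CF against FF at end 71 was -2.08 (SE 0.71, adjusted p = 0.0591). By batch, end 71 held 5.87% of CF and 18.1% of FF reads in batch 2, and 1.05% and 19.7% in batch 3. FF male replicate 4 gave 10 of the 21 FF reads of batch 2, and FF male replicate 6 gave 9 of the 12 of batch 3. Ends at 70, which keep only the first C, took 4.82% and 6.21% of pooled reads, but FF male replicate 6 gave 8 of the 11 FF reads and the FF share without it was 2.14%. The median per library was 2.12% in CF and 1.52% in FF, and end 69 held 1 read in each genotype.

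Among reads that ended at 69 to 72, CCA was intact in 57.0% in CF (95% Wilson interval 49% to 64.6%) and in 33.8% in FF (23.7% to 45.7%), pooled over libraries. The CC state made up 20.5% (14.9% to 27.7%) and 48.5% (37.1% to 60.2%). By library with at least 3 such reads, intact CCA was the most frequent state in 9 of 12 CF libraries and 2 of 8 FF libraries, and CC in 2 of 12 and 6 of 8. The lead of CC over CCA was narrow in FF female replicates 3 and 5 and male replicate 6 (4 against 3, 2 against 1 and 9 against 8 reads). In FF male replicates 1, 4 and 5 it was 4 against 1, 10 against 1 and 3 against 0 reads. Over the libraries with at least 3 such reads, the intact share was 62.5% ± 29.5 in CF (n = 12) and 37.2% ± 30.8 in FF (n = 8). The stratified difference of 24.1 percentage points (-8.27 to 55.4) did not pass the test (exact permutation p = 0.127, adjusted p = 0.329). The CF female of batch 3 had no FF partner with enough reads and did not enter this difference. In batch 2 the difference was -4.23 percentage points in females and 38.5 in males, and in males of batch 3 it was 52.6 (2 libraries of each genotype).

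**Figure D4:**
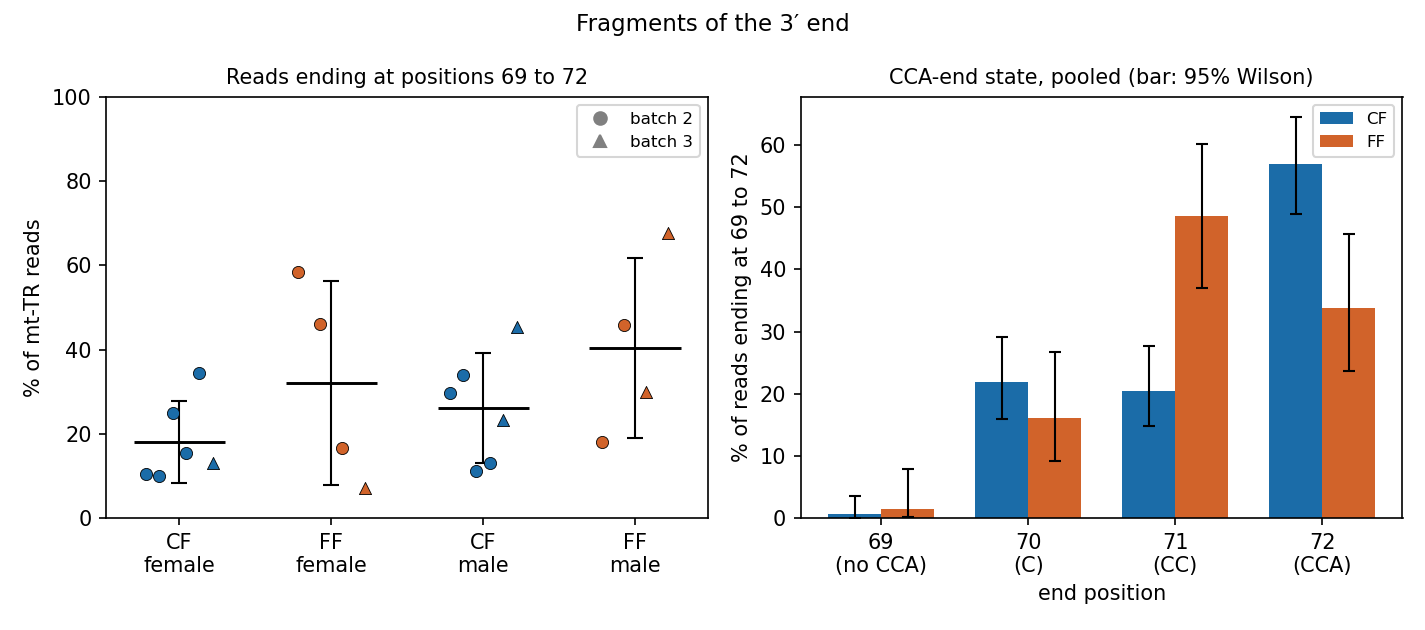
Left, the share of mt-TR reads (%) that end at positions 69 to 72 in each library with at least 10 reads, with the mean ± SD by genotype and sex. Right, how those reads divide by end position, pooled over libraries with 95% Wilson intervals; CC (71) is the highest bar in FF at 48.5% and CCA (72) in CF at 57.0%.

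The fragments that carry these patterns are printed with capitals on the CCA bases where the 3′ end is kept and otherwise on the anticodon. GRCm38 coordinates leave out the bases of CCA, which are added after transcription. The first is the most frequent 3′ fragment, the next pair end one base before the terminal A, and the last is the exact anticodon arm.
tRF 49-72 (chrM:9855-9875): gatgatgttcataattaccaaCCA
tRF 49-71 (chrM:9855-9875): gatgatgttcataattaccaaCC
tRF 46-71 (chrM:9852-9875): tatgatgatgttcataattaccaaCC
i-tRF 25-41 (chrM:9831-9847): aatgattTCGactcatt

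Of 226 sequences, edgeR called 1 (0.442%) at an adjusted p of 0.05, tRF 46-71. It was read in no CF library and in 3 FF libraries, with 4 reads in male replicate 4, 2 in female replicate 5 and 1 in female replicate 1, so that its share was at least 9.02-fold higher in FF against a floor of 3 reads over all CF libraries (edgeR adjusted p = 0.00732). The call rests on 7 reads and was lost when any of these 3 FF libraries was left out, one of which holds 2 reads in all. DESeq2 gave this sequence an adjusted p of 0.955 and called 2 other sequences, i-tRF 28-49 and 38-58, with 7 and 8 reads in CF and 0 in FF. CF female replicate 6 alone gave 5 of the 7 reads and all 8. At an unadjusted p under 0.05, edgeR counted 18 of the 226 sequences, 3 higher in CF and 15 higher in FF. This split moved with the setting. TMM gave 5 higher in CF and 10 higher in FF, DESeq2 gave 2, both higher in CF, and the replicate number as a block gave 1, higher in FF. Among other fragments with the CC end, chosen after their values had been seen, tRF 45-71 had 0 CF and 6 FF reads, tRF 50-71 had 0 and 6, and tRF 52-71 had 7 and 0.

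tRF 49-72 was the most frequent sequence, with 31 reads in 6 CF libraries (4.53% of pooled reads) and 2 reads in FF (1.13%). Its CF reads were 12 in male replicate 5, 8 in male replicate 6, 5 in female replicate 4, 4 in male replicate 1 and 1 each in female replicates 5 and 6. FF male replicates 1 and 3 held 1 read each. tRF 49-71, shorter by the terminal A, had 10 reads in 4 CF libraries (1.46%) and 8 in FF (4.52%), all 8 from male replicate 6. That library also held all 7 FF reads of tRF 45-72 (3.95%), which had 11 reads in CF (1.61%).

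Internal fragments around the anticodon supplied most of the other frequent sequences. i-tRF 25-41 had 27 reads in 5 CF libraries, of which 13 were in female replicate 4 and 11 in male replicate 5, and 0 in FF. Since CF held more reads in all, shares of pooled reads are set side by side for the next fragments. From the same start, i-tRF 25-44 took 2.63% in CF and 0.56% in FF, and i-tRF 25-46 took 2.63% and 2.26%. i-tRF 25-47 took 2.34% in CF, with 10 of its 16 reads in female replicate 1, and 0 of 177 reads in FF, where a floor of 3 reads would be 1.69%. i-tRF 32-56, which begins with the anticodon itself, was spread more evenly, with 22 reads in 7 CF libraries (3.22%, 2 to 6 reads in each) and 1 in FF (0.56%). i-tRF 20-39 (1.61% in CF and 1.69% in FF) and 28-54 (1.32% and 2.82%) completed the 10 most frequent sequences, tied at 14 reads with tRF 52-72 (1.61% and 1.69%).

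**Figure D5:**
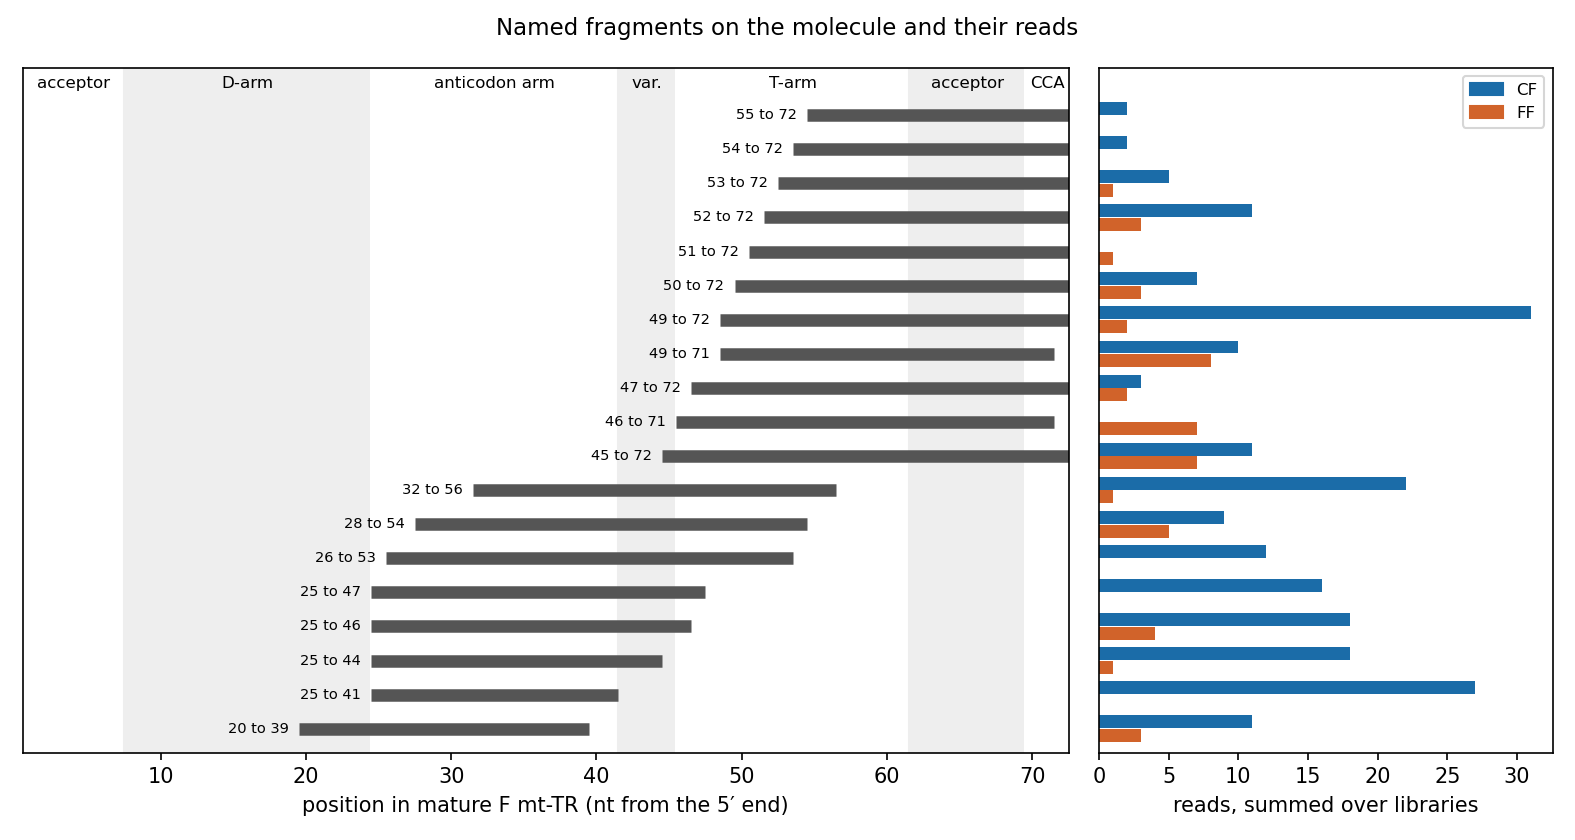
Left, the named fragments as bars from start to end position on mature F mt-TR (nt from the 5′ end), with the arms shaded; right, their reads summed over the CF and FF libraries. Fragments that start at 20 to 32 hold the anticodon, and 46 to 71 is the only fragment drawn here with reads in FF and none in CF apart from 51 to 72, which has 1.

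The study lists sequences of FF and CF from pretreated liver RNA of females, and 9 of the 26 distinct ones were counted in these lung libraries, with 73 reads in CF (10.7%) and 12 in FF (6.78%). All but i-tRF 26-53 end with intact CCA. i-tRF 26-53 had 12 reads in CF, 11 of them in female replicate 1, and 0 in FF. tRF 50-72 had 7 and 3 reads, tRF 53-72 had 5 and 1, and tRF 47-72 had 3 and 2. tRF 54-72 and 55-72 had 2 CF reads each, and tRF 51-72 had 1 FF read.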

How the data were processed

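Small RNA of lungs was sequenced from circularized single-adapter libraries, and the deposited table gives unnormalized counts per library for every mt-TR sequence. The submitters' processing notes name FastQC 0.12.1, UMI-tools 1.1.6, cutadapt 5.0, BWA 0.7.18, Bowtie 1.3.1 and mm10. The methods describe exact matching to mt-TR of the mouse's mtDNA type and removal of reads that match elsewhere, without saying which steps, or molecular identifiers, applied to lung. Reads per library are few, which limits the precision of every share.

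CF and FF libraries were grouped by genotype, sex and batch labels. Members, measures and named sequences were chosen with earlier results of these data known. Sequences were placed on the 72-nt F molecule by exact match. Library measures were compared with two-sided exact permutation tests within sex and batch, intervals came from inverting the test, and p-values were adjusted over 13 measures. Shares used libraries with at least 10 reads (12 CF, 8 FF), or with at least 3 reads ending at 69 to 72. edgeR 4.0.16 (quasi-likelihood, library size the total of mt-TR reads, sex and batch as covariates, no filter, Benjamini-Hochberg adjustment, R 4.3.3) tested sequences, starts, ends and lengths in the 23 libraries with reads, so FF female replicate 2 was left out. The SE of a fold change is its size divided by the square root of the F statistic. Alternatives were DESeq2 1.42.0, TMM, filters, batches and sexes alone, and a replicate block. Leaving each library out of the pooled shares was added after the data had been seen. The code was tested on simulated data, with Python 3.11.15, numpy 2.4.6, pandas 2.3.3 and scipy 1.17.1.

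Named sequences were the 10 with most reads, those of CF and FF in the supplementary table that were counted, and those past the edgeR threshold. Named positions and lengths were the 5 with most reads of each kind, those past the threshold, and positions 25, 53, 69, 70, 71 and 72.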

Additional observations from a re-analysis of the deposited data

Results flagged for a closer look

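Of 51 checks for a library far from the rest of its group of the same genotype and sex, 3 found one, where chance gives about 1 in 20, or 2.55. In CF female replicate 1, intact CCA ended 0% of 48 reads, and the nearest of the other 5 CF females had 9.52%. In FF female replicate 5, starts at positions 26 to 32 took 55.6% of 18 reads, and the nearest of the other FF females with at least 10 reads had 7.69%. In FF male replicate 1, starts at position 25 took 18.2% of 33 reads, and the nearest of the other FF males with at least 10 reads had 2.70%.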

How the results depend on the processing

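The differences in reads and in distinct sequences kept their direction in every alternative run. Their adjusted exact permutation p stayed under 0.05 except in males alone, males of batch 2 with a shared name prefix and batch 3 alone. The differences there were 1.54 and 1.45, 1.52 and 1.45, and 1.70 and 1.63 on the log2 scale, in that order. Fewer libraries entered these settings. They are also the ones without the females of batch 2, among whom prefix and genotype cannot be told apart. Why the calls were lost was not tested. The difference in distinct sequences per 10 reads lost its call in batch 2 alone (1.39), females (1.86), males (1.63), the males with a shared prefix (1.57) and batch 3 (2.51). Measures that were not called changed sign as follows, and the cause was not tested. Mean length became 0.013 nt in females and 0.73 nt in the males with a shared prefix. The share of 30 nt or longer became 1.45 percentage points in batch 2, 1.78 in females, 6.29 in the males with a shared prefix, 6.00 with at least 20 reads per library and 1.2 with distinct sequences. The mean start became 1.33 nt in batch 3, and starts before 25 became 1.64 in females and 1.18 with at least 1 read. Intact CCA became -4.07 in batch 2, -9.48 in females, -0.40 with at least 1 read and -4.90 with distinct sequences, and intact CCA among 3′ reads -4.23 in females. The share of 3′ ends passed the threshold with distinct sequences (-16.9), which were not set to equal numbers of reads.

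The edgeR counts of 1 sequence, 0 starts, 0 ends and 0 lengths became 2, 3, 4 and 2 with DESeq2, all higher in CF. They became 10 ends with TMM, 0 sequences and 2 ends with at least 10 reads per feature, and 1 start (position 46, lower in CF) in batch 2 alone. TMM factors ran from 0.394 to 7.81, and the median log2 fold change over end positions was 0.44 in the test as reported, 1.59 with TMM and 1.46 with DESeq2. Signs turned with TMM and DESeq2 at end 39 (1.21 and 1.46), end 72 (0.99 and 1.74), start 20 (0.83 and 1.02), start 26 (0.66 and 0.77) and length 22 (0.78 and 0.85). They turned in batch 2 alone at end 54 (-0.13), start 20 (1.27), start 26 (0.0499) and start 28 (-0.32).

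No pairing by replicate number was seen, but libraries with so few reads could not exclude it. Deviations of same-numbered libraries correlated at -0.054 on average over 11 pairs (-0.43 to 0.39), with 2 pairs over 0.1. With the replicate number as a block, reads differed by 2.28 (exact p = 0.00195), the sequence call was lost (0 sequences), and the fold changes at end 39 (0.47), end 72 (0.56) and length 22 (0.26) turned positive.

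Leaving out each library in turn gave 1.98 to 2.45 for reads, 1.75 to 2.11 for distinct sequences and 1.43 to 1.99 for distinct sequences per 10 reads, all still called. The share of 30 nt or longer ran from -3.50 to 3.71 and intact CCA from -1.63 to 5.12, both changing sign. Calls ran from 0 to 1 for sequences and from 0 to 3 for ends, and stayed at 0 for starts and lengths. With 0 to 37 reads in an FF library, shares near a few percent were not detectable at this depth.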
